A study of Aspergillus niger with 4 samples.

Results

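The genes described here are 84 abundant transcripts of the filamentous fungus Aspergillus niger that were lower in a strain without hapX. They were chosen by their values in these libraries, out of 10898 genes listed in at least 1 library. A gene was taken when its mean over the 4 libraries was at least 93 CPM (its count scaled to a common library total), when its mean in delta-hapX plus 0.5 CPM was at most 0.354 times its mean in the reference plus 0.5 CPM, when both delta-hapX values lay below both reference values, and when its coding length was above 300 bases. The fall itself is therefore given as a description and carries no test. A total of 2106 genes passed the limits on abundance and length, and the 84 genes were 3.99% of them.

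The 2 delta-hapX libraries came from a strain with delta-hapX::hph, and the 2 reference libraries from N593 delta-kusA. Both strains carry the alleles kusA::amdS, pyrG- and cspA1, and so share a requirement for uridine (pyrG-) and a disrupted kusA, a loss that favours targeted gene replacement, and they differ by the replacement of hapX with a hygromycin resistance marker. Mycelium was grown for 16 h with 2% fructose, washed, given 25 mM maltose in 50 ml of minimal medium (pH 6), and harvested after 2 h. The labels give neither the number of transformants behind the delta-hapX strain nor whether a strain's libraries stem from different cultures, so the spread between libraries may be technical, and they name no strain with hapX restored. In bulk mycelium, a change in the share of hyphae that express a gene and a change in RNA per hypha cannot be told apart.

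HapX is a basic leucine zipper transcription factor that works together with the CCAAT-binding complex. In Aspergillus species it is known for adjusting transcription to the iron supply, repressing iron-consuming pathways when iron is scarce and helping to activate some of them, and iron storage in the vacuole, when iron is plentiful. The comparison asks which transcripts depend on hapX on maltose, the disaccharide released from starch. The gene identifiers carry the prefix of the NRRL3 strain and are paired with no gene name in the sources used here, so no function is given for any of the 84 genes, and hapX itself was not analysed here.

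In each delta-hapX library the 84 genes held a much smaller share of the reads than in the reference. They took 1.01% of all counts in each of delta-hapX libraries a and b, against 4.44% and 3.96% in reference libraries a and b. Their median level was 101 and 98.3 CPM in the delta-hapX libraries and 475 and 399 CPM in the reference libraries. By rank of CPM within a library, the median gene of the set stood at position 1898.5 and 1933.5 in the delta-hapX libraries. In the reference libraries it stood at position 327.5 and 394. Only 2 of the 84 genes were among the 500 genes with the highest CPM in each delta-hapX library, against 59 and 55 in the reference libraries. These ranks are not scaled to gene length. The rule chose the genes by their fall, so it in part fixed these differences in share, level and rank.

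**Figure D1:**
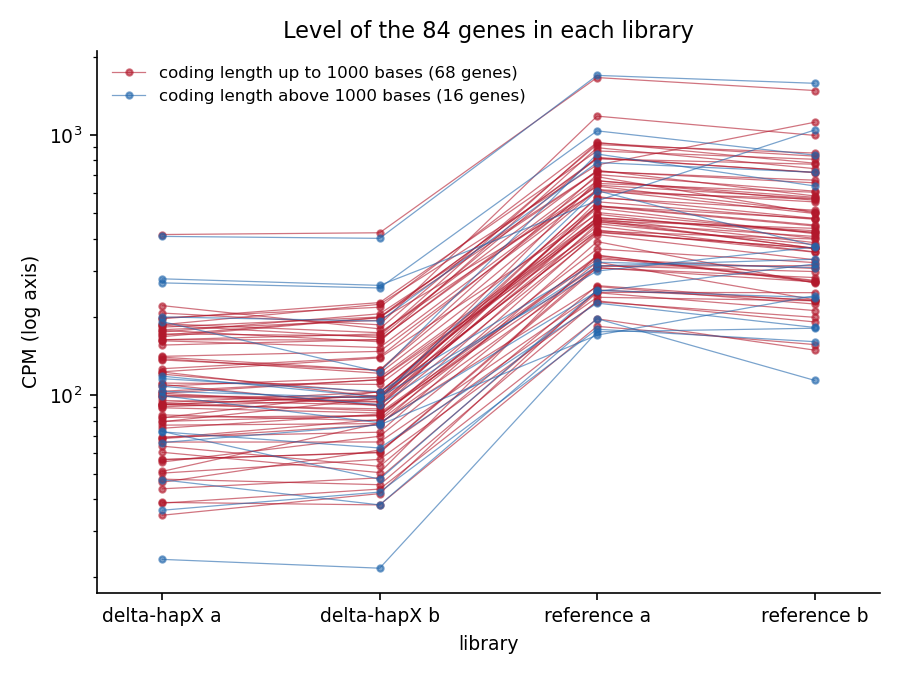
Level of each of the 84 genes in CPM (log axis) in the delta-hapX and reference libraries, with 1 line per gene, coloured by coding length. The lines lie between 21.7 and 421 CPM in delta-hapX and between 114 and 1694 CPM in the reference. For most genes delta-hapX is lower by a similar step, which the ratio limit of the rule in part fixed.

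edgeR's quasi-likelihood fit over 8535 genes called all 84 lower in delta-hapX at a Benjamini-Hochberg adjusted p under 0.05, where 26.6% of all genes tested were called, 14.4% as lower and 12.2% as higher. Nothing is read from that count, since the rule used the same contrast. Likewise, both delta-hapX values lay below both reference values in 33.2% of all genes tested, a condition the rule imposed on the 84. Their log2 fold changes (delta-hapX over reference, from the same fit) had a median of -2.03, with an interquartile range from -2.22 to -1.90. Over all genes tested the median was 0.0010. The median gene of the set was 4.13-fold lower in delta-hapX. Such fold values are the ratio used by the rule, with 0.5 CPM added to each mean. The lowest reference value exceeded the highest delta-hapX value by a median factor of 3.63 and by at least 1.99-fold in every gene of the set, a gap that the rule in part fixed. By the same ratio in the other direction, 24 of the 2106 genes that passed the abundance and length limits were higher in delta-hapX.

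**Figure D2:**
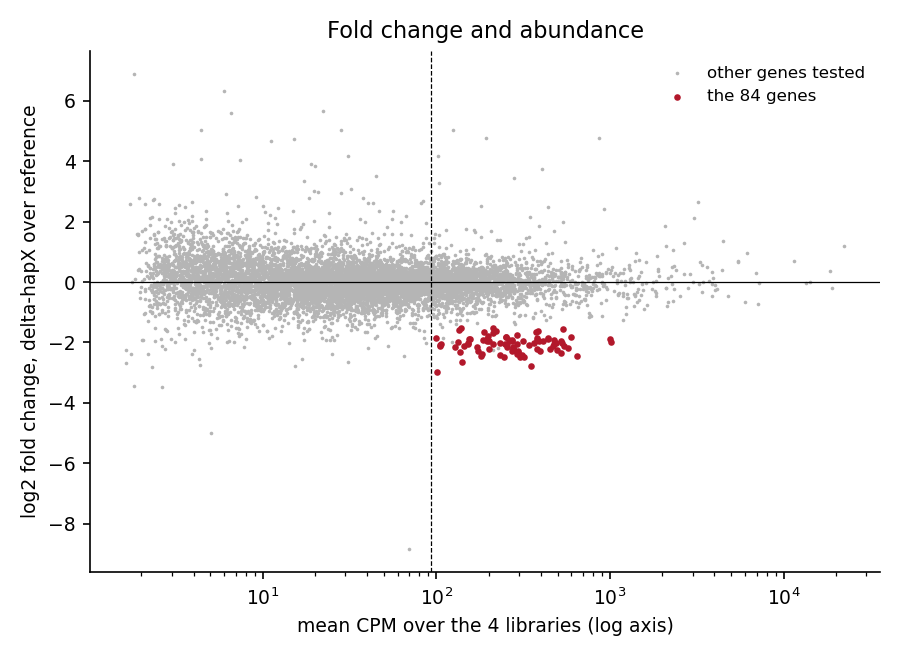
Log2 fold change of delta-hapX over reference against mean CPM (log axis) for the 8535 genes tested, with the 84 genes in red and the limit of 93 CPM dashed. The rule placed the 84 genes below most other genes of the same abundance, in a band around -2.03. The 6 genes excluded for their short coding length lie in the same band, from -2.38 to -1.85.

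By CPM, which is not scaled to gene length, the highest member in the reference was NRRL3_05940, with a coding length of 1221 bases. It had 408 and 401 CPM in the delta-hapX libraries, against 1694 and 1579 CPM in the reference libraries (log2 fold change -2.00, SE 0.12). NRRL3_06601, of 771 bases, had 415 and 421 CPM in the delta-hapX libraries and 1661 and 1482 CPM in the reference libraries (log2 fold change -1.89, SE 0.12). In both genes the libraries of a strain lay close together and the strains stood about 4-fold apart. These were the only members among the 100 genes with the highest CPM in each reference library. No member was among the 100 highest by CPM in a delta-hapX library.

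NRRL3_11042, of 654 bases, had 207 and 187 CPM in the delta-hapX libraries and 1181 and 996 CPM in the reference libraries, and was 5.52-fold lower in delta-hapX. NRRL3_09875, of 1914 bases, had 270 and 258 CPM in the delta-hapX libraries and 1037 and 837 CPM in the reference libraries (3.54-fold lower in delta-hapX). Both were higher in reference library a than in reference library b. NRRL3_11759, of 768 bases, went the other way between the reference libraries. It had 187 and 224 CPM in the delta-hapX libraries, against 767 and 1119 CPM in the reference libraries, and still lay at least 3 times higher in each reference library than in either delta-hapX library.

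Levels between genes are compared per length, with the authors' FPKM values (fragments scaled to gene length and depth). On that scale the mean of NRRL3_10630 (360 bases) was 553 FPKM in delta-hapX and 2080 FPKM in the reference, the highest reference level of the set. NRRL3_06601 followed with 551 FPKM in delta-hapX and 2069 FPKM in the reference, which is too close to NRRL3_10630 to order the pair. The lowest per length was NRRL3_08790, the longest member at 16923 bases, with 5.95 and 5.60 FPKM in the delta-hapX libraries and 35.0 and 21.5 FPKM in the reference libraries. Of the 84 genes, 0 reached 1000 FPKM in a delta-hapX library, whereas 23 exceeded it in both reference libraries. At least 100 FPKM in both libraries of a strain was reached by 68 of them in delta-hapX and by 80 in the reference.

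The fall ranged from 2.87-fold to 7.75-fold. NRRL3_02940, of 1071 bases, fell furthest, to 23.4 and 21.7 CPM in the delta-hapX libraries, against 175 and 181 CPM in the reference libraries (log2 fold change -2.96, SE 0.15). These values rest on 90 and 76 reads in delta-hapX and 748 and 750 reads in the reference. NRRL3_11599 (498 bases) followed, with 79.2 and 97.3 CPM in the delta-hapX libraries and 668 and 561 CPM in the reference libraries (log2 fold change -2.78, SE 0.14). NRRL3_04751 (351 bases) had 34.6 and 41.9 CPM in the delta-hapX libraries and 254 and 232 CPM in the reference libraries (log2 fold change -2.65, SE 0.14). These falls stand apart from the median of the set by more than their standard errors. The next in order, NRRL3_09094 and NRRL3_02357, had log2 fold changes of -2.49 (SE 0.13) and -2.48 (SE 0.12) and do not differ from each other beyond their errors.

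At the typical fall, NRRL3_09240 (450 bases) had 82.3 and 83.6 CPM in the delta-hapX libraries and 365 and 323 CPM in the reference libraries. NRRL3_06513 (330 bases) had 99.0 and 94.1 CPM in the delta-hapX libraries and 446 and 356 CPM in the reference libraries. Both had a log2 fold change of -2.03 (SE 0.12 and 0.13). Many members lay around this value: 72 of the 84 had a log2 fold change between -2.5 and -1.75. These edges were chosen after the values had been seen. The median standard error of a single gene was 0.13, and the standard deviation of the fold changes over the 84 genes was 0.28 on the log2 scale. The ratio limit of the rule removed smaller falls and so narrowed this spread.

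The smallest falls sat at the limit of the rule and belonged to longer genes. NRRL3_05529 (1203 bases) had 65.9 and 77.0 CPM in the delta-hapX libraries and 170 and 241 CPM in the reference libraries (log2 fold change -1.51, SE 0.16). NRRL3_05550 (3777 bases) had 116 and 103 CPM in the delta-hapX libraries and 325 and 309 CPM in the reference libraries (log2 fold change -1.51, SE 0.12). NRRL3_06536 (4065 bases) had 280 and 264 CPM in the delta-hapX libraries and 559 and 1044 CPM in the reference libraries (log2 fold change -1.54, SE 0.20). In NRRL3_06536 the reference libraries differed almost by a factor of 2, so its fall depends on which reference library is used, from 1.99-fold at the least. NRRL3_00509 (1344 bases) and NRRL3_08031 (2406 bases) came next, at -1.57 (SE 0.14) and -1.61 (SE 0.14).

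Genes just outside the limits had similar values. By fold, NRRL3_08860 missed the ratio limit with a ratio of 0.356, having 64.3 and 48.8 CPM in the delta-hapX libraries and 186 and 134 CPM in the reference libraries, and NRRL3_04733 and NRRL3_03007 followed at 0.379 and 0.382. By abundance, the lowest members were NRRL3_08789 (42.7 CPM in delta-hapX and 156 CPM in the reference on average), NRRL3_02940 and NRRL3_05598, and the nearest genes below 93 CPM were NRRL3_04836, NRRL3_08347 and NRRL3_06918 with means over all libraries of 87.2, 85.0 and 84.8 CPM. By coding length, the shortest members were NRRL3_08101, NRRL3_03356 and NRRL3_10635 at 318, 321 and 327 bases. A total of 6 genes met the rest of the rule with a coding length of 198 to 279 bases. The longest of these, NRRL3_09367 and NRRL3_07533, were 4.60-fold and 3.90-fold lower in delta-hapX.

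Short genes made up most of the set. The 84 genes had a median coding length of 555 bases and an interquartile range from 429 to 794 bases, against 1647 bases (1102 to 2457) for the other 2022 genes that passed the abundance and length limits. The rule only asked for a length above 300 bases. Among abundant genes of more than 300 and up to 450 bases, 26 of 81 belonged to the set, or 32.1%. The share was 17.9% (19 of 106) up to 600 bases, 9.35% (20 of 214) up to 900 bases and 2.28% (6 of 263) up to 1200 bases. Above 2000 bases it was 0.806% (6 of 744). All lengths in the tables are multiples of 3. They are thus coding lengths, and the length of the RNA is not known. Whether loss of short RNA in the delta-hapX libraries plays a part was not tested.

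**Figure D3:**
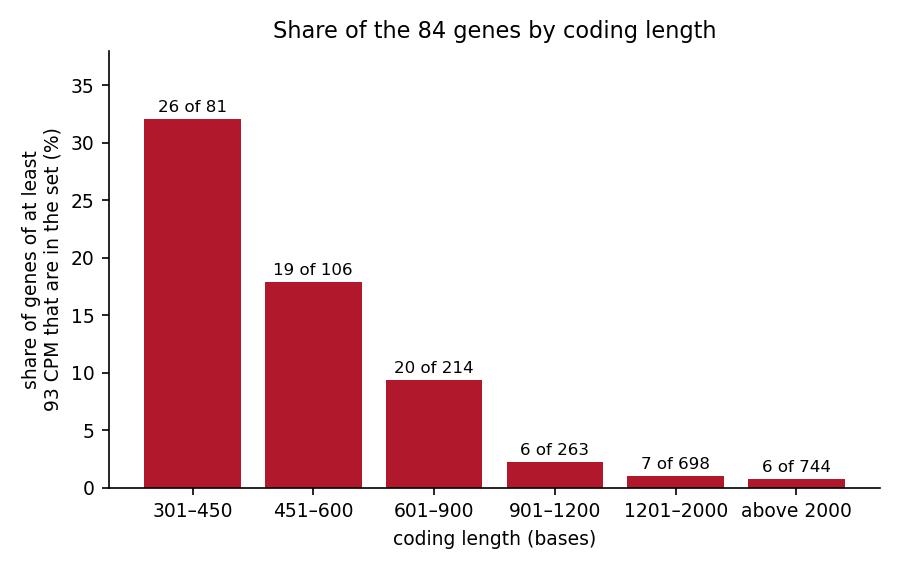
Share of abundant genes (at least 93 CPM, coding length above 300 bases) that belong to the 84 genes, in percent, by class of coding length, with counts above each bar. The share is 32.1% in the shortest class and 0.806% above 2000 bases.

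The other short and abundant genes had medians near 0 but were called lower more often than longer ones. Outside the set, 119 of the 418 abundant genes of up to 1000 bases were lower in delta-hapX (28.5%) and 67 were higher, against 257 lower (16.0%) and 306 higher among 1604 longer genes (edgeR). Those of up to 450 bases outside the set had a median log2 fold change of -0.067, those up to 600 bases -0.15 and those above 2000 bases 0.049. The rule had removed the strongest falls from these genes, so their difference from the members is no test. Among all 486 abundant genes of up to 1000 bases, 64 had a log2 fold change from -2.5 to -1.75, 6 from -1.75 to -1.25 and 25 from -1.25 to -0.75. Few short genes thus lay near the limit of the rule. The bins were chosen after the values had been seen. Among the 1620 longer genes the 16 members had a median of -1.82. They adjoined the other genes, apart from NRRL3_02940 at -2.96.

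**Figure D4:**
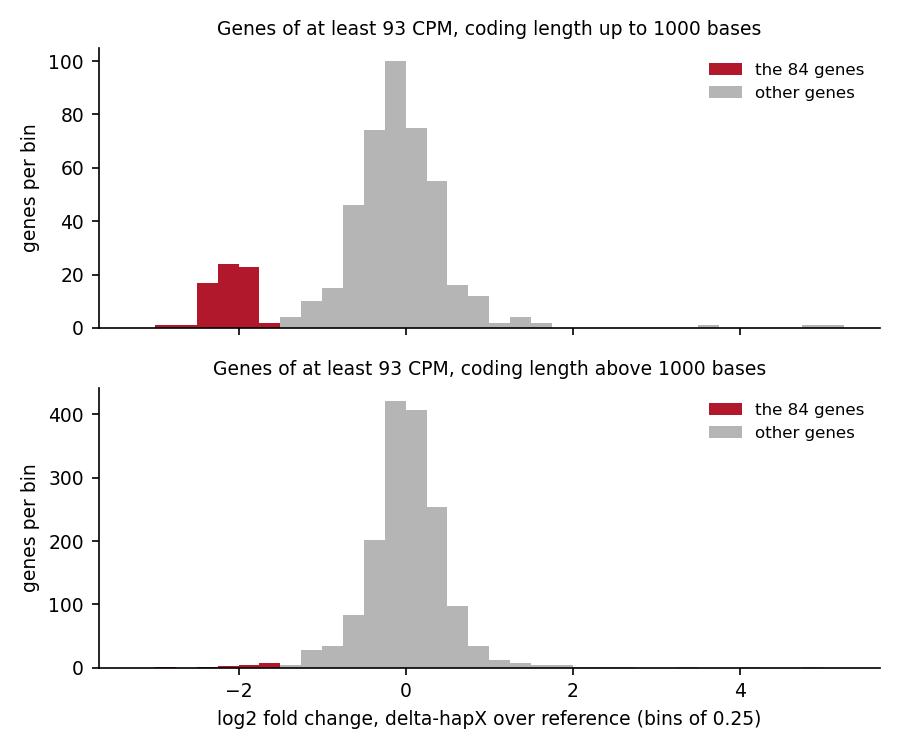
Number of abundant genes per bin of log2 fold change (delta-hapX over reference), for coding lengths up to 1000 bases (top) and above (bottom), with the 84 genes in red. The 68 shorter members lie around -2.06, with few but some genes between them and the others. Most of the 16 longer members adjoin the other genes. The rule cut on this fold change, and the bins were chosen after the values had been seen.

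A feature that the rule did not use was which library of a strain was higher. The size of that difference was limited in part, since both delta-hapX values had to lie below both reference values. Of the 84 genes, 76 were higher in reference library a than in reference library b, or 90.5%, against 50.7% of the other 2022 abundant genes. The median log2 ratio of reference a to reference b was 0.20 over the 84 genes, or 1.15-fold, and 0.0031 over the others. Level was not matched: the median reference level was 442 CPM in the 84 genes and 169 CPM in the others. In the members of up to 1000 bases 66 of 68 were higher in reference a, against 215 of 418 other abundant genes of that length (51.4%). Within that class the members had a median length of 472.5 bases and the other genes 738 bases. Up to 450 bases, 25 of 26 members were higher in reference a, against 33 of 55 other genes (60.0%). Above that and up to 600 bases, 19 of 19 members were, against 50 of 87 other genes (57.5%). Of the 16 longer members, 10 were higher in reference a and 6 in reference b. This is a description of a single pair of libraries, and genes are not independent replicates of it.

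Between the delta-hapX libraries no such shift was seen over the whole set, with 42 of the 84 genes higher in library a and 42 higher in library b. By length the members differed here: 28 of 68 shorter members and 14 of 16 longer members were higher in delta-hapX library a. Among the other abundant genes, 210 of 418 of up to 1000 bases (50.2%) and 840 of 1604 longer ones (52.4%) were. Of the 46 abundant genes with the next largest separated falls (ratio above 0.354 and up to 0.5), 21 (45.7%) were higher in reference a. They thus did not show the shift between the reference libraries. These 46 genes were longer, with a median of 1507.5 bases against 555 for the members, so fall and length cannot be told apart here. Between the delta-hapX libraries 33 of these 46 (71.7%) were higher in library a. Of the 6 genes excluded for their short coding length, 6 were higher in reference a. Among 19 less abundant genes, which met the rest of the rule with a mean from 30 CPM up to the limit, 13 were higher in reference a. Abundant genes that rose in delta-hapX leaned the same way, with 32 of 49 (65.3%) at a log2 ratio above 1 and 90 of 148 (60.8%) from 0.5 to 1. Of those with a log2 ratio from -1 to -0.5, 75 of 189 (39.7%) were higher in reference a.

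The 8 members that were higher in reference library b were, for the most part, not the short ones. They were named after their values had been seen. NRRL3_02940, NRRL3_05529, NRRL3_08031, NRRL3_02451, NRRL3_06536 and NRRL3_03995 had coding lengths from 1071 to 4629 bases, and NRRL3_11759 and NRRL3_10796 had 768 and 438 bases. NRRL3_10796 hardly differed between the reference libraries, at 74.7 and 84.7 CPM in the delta-hapX libraries and 314 and 315 CPM in the reference libraries. NRRL3_02940 (175 and 181 CPM in reference libraries a and b) and NRRL3_03995 (314 and 333 CPM) also differed little there. NRRL3_02451 had 99.7 and 78.4 CPM in the delta-hapX libraries, against 251 and 320 CPM in the reference libraries.

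**Figure D5:**
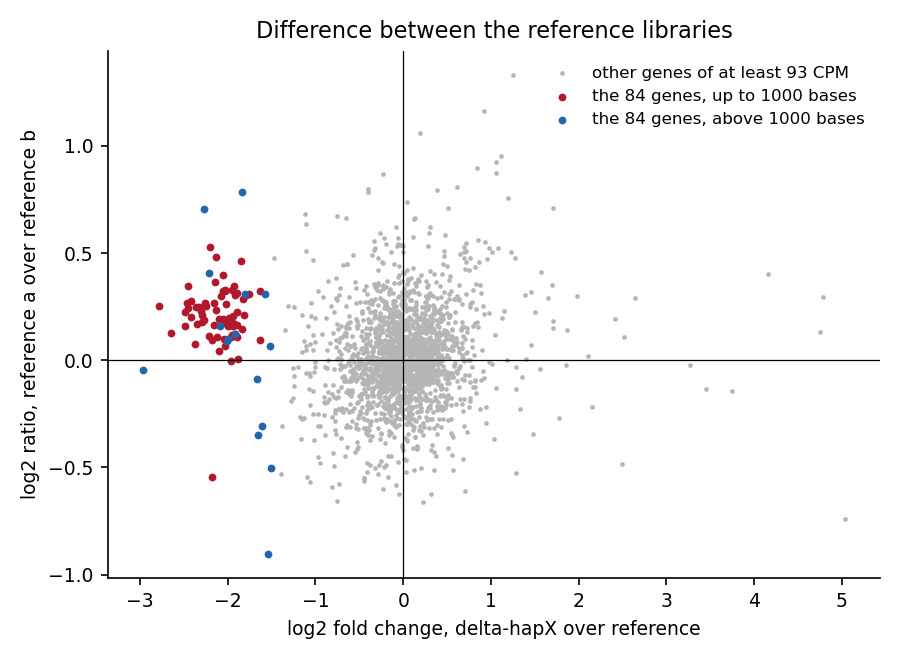
Log2 ratio of reference library a to reference library b against the log2 fold change of delta-hapX over reference, for the 84 genes (red up to 1000 bases, blue above) and the other 2022 abundant genes (grey). Of the red points 66 of 68 lie above 0, and the blue points spread to both sides.

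The identifiers of the 84 genes ran from number 43 to number 11759, over nearly the whole numbering, which ends at 11846. There were 1 to 12 members per 1000 numbers. Members with consecutive numbers formed 5 pairs and no longer run. The sources used here do not say if numbering follows chromosomal order, and whether paired genes overlap and share reads was not tested.

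Within each of the 5 pairs the log2 fold changes differed by less than 2 combined standard errors, which does not show that they are alike. NRRL3_06513 and NRRL3_06514 had log2 fold changes of -2.03 (SE 0.13) and -2.06 (SE 0.13). NRRL3_03716 and NRRL3_03717 had -2.30 (SE 0.14) and -1.95 (SE 0.12), and NRRL3_05141 and NRRL3_05142 had -2.10 (SE 0.12) and -2.42 (SE 0.13). NRRL3_06537, next to NRRL3_06536, is a short gene of 402 bases with 164 and 163 CPM in the delta-hapX libraries and 691 and 502 CPM in the reference libraries. The members of that pair went opposite ways between the reference libraries, with NRRL3_06537 1.38 times as high in library a as in b and NRRL3_06536 0.535 times.

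The pair NRRL3_08789 and NRRL3_08790 had the largest ratios of reference a to reference b in the set, 1.73 and 1.63. NRRL3_08790 had 104 and 97.6 CPM in the delta-hapX libraries, against 611 and 375 CPM in the reference libraries (log2 fold change -2.27, SE 0.17). NRRL3_08789 (1560 bases) had 47.4 and 37.9 CPM in the delta-hapX libraries, against 197 and 114 CPM in the reference libraries (log2 fold change -1.84, SE 0.20). Both were lower in each delta-hapX library than in each reference library, and they were the only members whose reference libraries differed by over 1.5-fold with library a higher.

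The genes next to a member by number are given without and with those that are members themselves, since the rule removed its members by their own counts. Of the 145 tested genes that were 1 number away from a member and not members themselves, 26 were lower in delta-hapX (17.9%, against 14.4% of all genes tested) and 11 were higher (7.59%, against 12.2%) by edgeR's quasi-likelihood test. Their median log2 fold change was -0.10. With the 10 members that stood next to another member put back, 36 of 155 were lower (23.2%). At a distance of 2 numbers 31 of 149 were lower (20.8%) and 16 higher, and at a distance of 5 numbers 21 of 141 were lower (14.9%) and 20 higher. The neighbours with the largest falls were NRRL3_02452, NRRL3_06918 and NRRL3_01903. NRRL3_06918, a gene of 333 bases beside the member NRRL3_06917, had 36.2 and 37.1 CPM in the delta-hapX libraries and 140 and 126 CPM in the reference libraries, and missed the set by abundance alone. NRRL3_02452 had 2.08 and 0.285 CPM in the delta-hapX libraries and 6.57 and 8.21 CPM in the reference libraries (edgeR adjusted p = 0.0033), and NRRL3_01903 was likewise a low gene, with 3.65 and 1.71 CPM in the delta-hapX libraries and 7.97 and 8.21 CPM in the reference libraries (edgeR adjusted p = 0.016).

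The choice of genes was repeated on part of the libraries, as a description and not as a test. When the limits were applied to the delta-hapX and reference libraries lettered a alone, 81 genes met them, of which 79 were among the 84. The limits themselves had been set with all 4 libraries known. In the libraries lettered b all 81 were lower in delta-hapX, with a median log2 ratio of -1.91. For the 79 members the rule had already required this. With the choice made in the libraries lettered b, 86 genes met the limits, 83 of them among the 84. In the libraries lettered a all 86 were lower, with a median log2 ratio of -2.14, which the rule had again required of the members. The ratios in the libraries of the other letter ranged from -3.03 to -1.16 in those lettered b and from -3.07 to -0.99 in those lettered a.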

How the data were processed

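RNA sequencing was analysed in 4 libraries. Library totals were 3840181 and 3505555 expected counts in delta-hapX libraries a and b and 4264311 and 4142850 in reference libraries a and b. Per the series' design text, reads were mapped to the NRRL3 genome. Bowtie2 and HISAT appear in the submitters' processing notes. For the quantifier, annotation, strandedness and filters nothing was found in the labels or headers. Each deposited table gives, per the file headers, an expected count (estimated reads per gene, not normalized), an FPKM value scaled by the authors to length and depth, and a gene length. Genes missing from a table were set to 0.

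The members and lists were chosen with earlier results of these data known, as were the length classes and the split at 1000 bases. CPM was the expected count scaled to a common library total. Counts were rounded and tested with edgeR 4.0.16 in R 4.3.3 (quasi-likelihood F test, group as the only term, TMM, filterByExpr, Benjamini-Hochberg adjustment at 0.05). A standard error is the absolute log2 fold change over the square root of F. Genes tested held 99.8% of counts. The edgeR fit was tested on simulated data. These held no shared shift between libraries of a strain, so that case was not tested. The smallest member count was 76, and 3 members (NRRL3_01874, NRRL3_05710 and NRRL3_10471) had a fractional expected count in a library, which can come from reads shared between genes. FPKM divided by CPM per kilobase was 1.09 for the shortest member and 0.969 for the longest, so the authors' FPKM did not divide by the listed length alone.

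Named members were those highest in the reference, with the largest, smallest and median falls, longest, shortest, numbered consecutively or nearest a limit of the rule; the genes higher in reference b, and NRRL3_10630, which was highest per length, were added after their values had been seen. Libraries of a strain differed by more than sampling noise (chi-square per gene 3.91 in delta-hapX and 6.85 in the reference). Alternatives were DESeq2 1.42.0 and its size factors, library totals, other filters, the replicate letter as a block, limma 3.58.1 on log2 FPKM, other limits of the rule and leaving out each library. The planned grouping by gene product and the count of CCAAT in promoters were not run, since 0 identifiers matched the table of gene names.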

Additional observations from a re-analysis of the deposited data

How the results depend on the processing

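All 84 genes were lower at an adjusted p under 0.05 in each of 13 other fits, and 32 named members kept direction and call in all 416 refits (highest adjusted p 0.0306). Nothing is read from these counts of members, since the rule chose the genes from the same libraries. The median log2 fold change of the set ranged from -2.12 to -1.93, both ends on leaving out a reference library. Counts over all genes moved more. DESeq2's Wald test called 1380 genes (810 lower, 570 higher) against 2268 (1225 lower, 1043 higher), with 14 neighbours of members lower and 5 higher. Limma on log2(FPKM + 1) called 680 higher genes, with a pseudocount of 0.1 it called 635, and with no filter it called 1201 (714 lower, 487 higher) and 5 higher neighbours. The cause was not tested.

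Leaving out 1 library, its partner being taken to vary like the libraries of the other strain, gave 1587 to 2075 changed genes (887 to 1155 lower, 700 to 920 higher), 84 members lower in each case, 20 to 25 neighbours lower, 7 (without delta-hapX library b) to 9 neighbours higher, and 77 to 89 genes meeting the rule. A ratio limit of 0.5 gave 130 genes and 0.25 gave 49. Scaling by TMM moved the share of other abundant genes higher in reference a to 45.5%, and 75 of the 84 members were then higher there. In the fit with the replicate block (letter), 2630 genes were called, and 84 members were lower with a median of -2.03. The letters were not taken to pair libraries, since the labels do not say that they do. Deviations of same-lettered libraries had a correlation of 0.019 over the genes tested. With a single pair of libraries per strain, that value cannot exclude pairing. With 2 libraries per strain and unnamed genes, the set can be described but not assigned a function.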
